A study of Mus musculus with 12 samples.

Results

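Meiotic recombination starts with programmed DNA breaks, and 10 genes were examined that make those breaks, choose their sites or build the chromosome axis on which they form. They are Spo11, Mei1, Mei4, Rec114, Ankrd31, Ccdc36 (also known as Iho1), Hormad1, Hormad2, Prdm9 and Trip13. They were chosen by name for these roles, with earlier results of these data known. A row was matched for 9 of the 10 among the 37991 gene rows of the count table. Ankrd31 was not analysed here. RNA was sequenced from primordial germ cells, the precursors of eggs and sperm, sorted separately from each of 12 C57BL/6 mouse embryos at E13.5, midgestation. The groups were female Ezh2 conditional knockouts (CKO, 2 embryos), female controls (Ctrl, 3), male Ezh2 CKO (3) and male Ctrl (4). Ezh2 encodes the main catalytic subunit of Polycomb repressive complex 2, which trimethylates histone H3 on lysine 27. The labels do not give the Cre driver, the deleted exons, the genotype of the controls or the litters, so the groups are described here only as Ezh2 CKO and Ctrl of each sex.

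SPO11 cuts DNA at the start of meiosis together with the protein of Gm960, the symbol used in the annotation for Top6bl. REC114 and MEI4, with IHO1, the protein of Ccdc36, assemble on the chromosome axis and are needed for the cut, as is MEI1. HORMAD1 and HORMAD2 coat axes whose homologs have not yet paired, and TRIP13, an AAA+ ATPase, removes them once pairing is complete. PRDM9 binds DNA through zinc fingers and methylates histone H3 beside the places where breaks are made. In mice, female germ cells enter meiosis in the fetal ovary at about the stage sampled, whereas male germ cells stop dividing in the fetal testis and enter meiosis after birth.

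The stretch before the start site was examined for motifs because most members differed between the sexes in the same direction, as given further on. RefSeq (GRCm38.p6) gave an entry for 8 of the 9 members, and none for Spo11. The motifs, searched on both strands from 250 bases before to 50 after each start, were CNCCTCAG, a motif reported for the meiotic initiator STRA8, the E-box CACGTG and the E2F motif TTCCCGCC. The stretches of 250 bases below are those of Hormad1 (chr3:95559427-95559676, plus strand), Hormad2 (chr11:4441083-4441332, minus strand) and one of the Prdm9 starts (chr17:15564355-15564604, minus strand), which hold matches, and of Ccdc36 (chr9:108431827-108432076, minus strand), the only member called in female CKO cells, which holds none. Each is written 5′ to 3′ on the gene's strand, with matches on either strand in capitals.
Hormad1: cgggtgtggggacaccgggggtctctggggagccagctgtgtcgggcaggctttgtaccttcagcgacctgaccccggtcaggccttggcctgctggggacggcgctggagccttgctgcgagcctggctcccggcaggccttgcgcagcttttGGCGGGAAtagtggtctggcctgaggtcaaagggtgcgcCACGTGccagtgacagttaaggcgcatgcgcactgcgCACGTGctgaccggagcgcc
Hormad2: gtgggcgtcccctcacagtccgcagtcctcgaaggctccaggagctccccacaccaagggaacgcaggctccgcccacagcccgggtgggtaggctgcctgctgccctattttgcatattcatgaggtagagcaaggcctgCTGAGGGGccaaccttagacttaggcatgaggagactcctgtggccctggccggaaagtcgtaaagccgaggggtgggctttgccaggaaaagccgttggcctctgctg
Prdm9: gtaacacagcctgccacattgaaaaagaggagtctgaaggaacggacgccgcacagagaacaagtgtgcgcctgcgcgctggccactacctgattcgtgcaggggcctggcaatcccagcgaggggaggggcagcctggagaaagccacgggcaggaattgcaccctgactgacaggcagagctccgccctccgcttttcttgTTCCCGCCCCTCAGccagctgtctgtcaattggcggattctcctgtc
Ccdc36: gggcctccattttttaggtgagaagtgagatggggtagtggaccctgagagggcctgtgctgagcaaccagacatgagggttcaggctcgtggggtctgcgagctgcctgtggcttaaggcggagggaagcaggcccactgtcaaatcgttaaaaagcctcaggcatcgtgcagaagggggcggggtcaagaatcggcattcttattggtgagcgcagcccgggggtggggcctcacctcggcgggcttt

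A member was counted if any of its windows matched, and Hormad1 and Prdm9 had 2 windows each. The shares over all windows count single windows, so the 2 measures are not alike. The STRA8 motif occurred in 2 of the 8 members (Hormad2 and 1 of the 2 Prdm9 windows) and in 7.94% of all 32851 RefSeq promoter windows. The E-box occurred in 2 of 8 (Hormad1 and Rec114), against 7.15% of all windows, and the E2F motif in 2 of 8 (Hormad1 and Prdm9), against 2.19%. Hormad1 had 2 E-boxes, starting 57 and 20 bases before the start site, and an E2F match on the reverse strand. In Prdm9 the E2F and STRA8 matches overlapped by shared bases and form the single run of capitals above, and the window held a further STRA8 match just after the start. No match lay in the windows of Mei1, Mei4, Ccdc36 or Trip13. The ratio of observed to expected CpG was 1 for Trip13 and 0.713 for Hormad1, the highest of the 8 members, against a median of 0.384 over all windows.

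Total counts ran between 26180685 and 35299206 per library, and 1 CPM (counts per 1000000 counts of a library) stood for 24.2 to 34.2 counts. Ezh2 counts checked the labels. Ezh2 had 84.5 and 107 CPM in female CKO embryos, against 150.06, 145 and 166 CPM in female Ctrl embryos. In males it had 85.8, 82.4 and 85.0 CPM in CKO embryos, against 96.6, 144, 129 and 119 CPM in Ctrl embryos. CKO and Ctrl did not overlap in either sex. The log2 difference was -0.68 in females (SE 0.15, adjusted p = 0.0200) and -0.53 in males (SE 0.13, adjusted p = 0.0527; edgeR quasi-likelihood test, Benjamini-Hochberg over 16708 genes, as for every adjusted p given without another tool's name). The female call ended without female CKO 1 (-0.52, adjusted p = 0.165) or female Ctrl 3 (adjusted p = 0.0779), and DESeq2 called the male change (adjusted p = 0.00656). A count over the whole gene can include reads from exons outside the deleted part. Summed germ cell markers were between 5781 and 6402 CPM in all 12 libraries. The sum was 5808 to 5872 CPM in female CKO embryos, below the 6143 to 6352 CPM of female Ctrl embryos. Between these groups Dppa3 averaged 424 against 668 CPM and Pou5f1 142 against 210 CPM. Dazl went the other way, at 3172.5 against 3089 CPM, as did Ddx4, at 1288 against 1139 CPM. The part of this in the members' values was not tested. Summed Sertoli cell markers were 10.5 to 14.0 CPM in female libraries and did not exceed 51.2 CPM in any library. Of these 8 markers, Amh was at 0 in every female library, whereas Aard was at 10.2 to 13.6 CPM there. Summed mesonephric epithelium markers were 231 to 299 CPM in females and 496 to 613 CPM in males. Summed pregranulosa cell markers were 16.1 to 28.6 CPM in females and 4.64 to 14.8 CPM in males. In these sorted pools, fewer cells in meiosis and less RNA per cell cannot be told apart.

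Per kilobase of exon, Hormad1 was the highest member in female Ctrl cells, at 152 CPM per kb, followed by Trip13 at 39.3 CPM per kb. Rec114 (20.3), Hormad2 (18.2), Mei4 (8.53), Spo11 (5.49), Ccdc36 (4.59), Prdm9 (1.90) and Mei1 (0.652 CPM per kb) came next. Rec114 and Hormad2 overlapped in their embryos' values, as did Spo11 and Ccdc36. Within each embryo Spo11 was above Ccdc36 in 3 of 3 female Ctrl embryos, and Rec114 was above Hormad2 in 2 of 3. In male Ctrl cells the order of the levels per kb differed only in Spo11, which at 6.93 CPM per kb stood above Mei4 at 5.93, with overlapping values. There Hormad1 had 86.6 and Trip13 51.3 CPM per kb. In female CKO cells Ccdc36, at 9.87 CPM per kb, stood above Spo11 at 4.17.

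**Figure D1:**
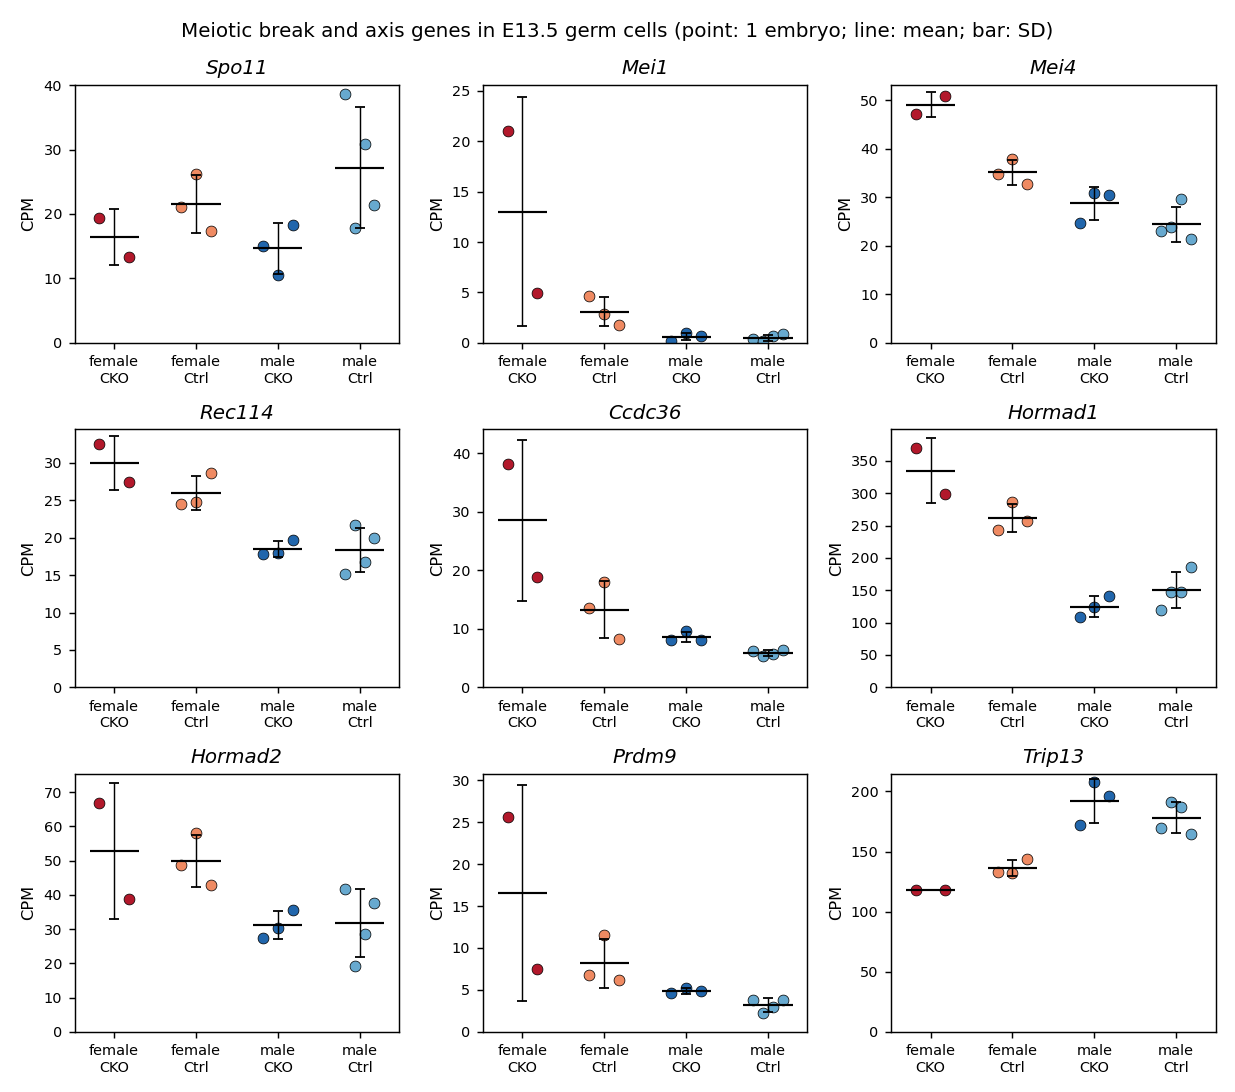
CPM of the 9 members (linear axis from 0), 1 panel a gene, with female groups left of male groups and CKO left of Ctrl in each sex; points are embryos, long lines group means and bars the SD. Mei1 was between 1.75 and 21.05 CPM in female embryos and below 1 CPM in every male embryo, whereas Trip13 was higher in males.

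The comparison of the sexes in Ctrl embryos shows these genes around the time when female cells enter meiosis. In Ctrl embryos 7 of the 9 members were higher in females, 1 was lower and 1 was not called. Of all tested genes, 39.5% were called between Ctrl females and males, 20.1% higher in females and 19.4% lower. The groups did not overlap for the 7 higher members and for Trip13, where 22.3% of all tested genes were so separated upward and 21.1% downward. Scaling by library size alone moved the all-gene split to 4062 higher and 2592 lower, against 3358 and 3246, and reversed no member.

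The break enzyme gene was the exception. Spo11 had 21.1, 26.2 and 17.3 CPM in female Ctrl embryos, against 38.6, 17.9, 30.8 and 21.4 CPM in male Ctrl embryos. The groups overlapped, and the log2 difference of -0.34 (SE 0.27) was not called (adjusted p = 0.348). Spo11 transcripts were thus counted in germ cells of both sexes, at 21.5 ± 4.46 CPM in female Ctrl (SD, n = 3) and 27.2 ± 9.39 CPM in male Ctrl embryos (SD, n = 4).

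The 4 members needed for the cut besides Spo11, namely Mei1, Ccdc36, Mei4 and Rec114, were all higher in female Ctrl cells. Mei1, required for break formation in mice, had 4.64, 2.88 and 1.75 CPM in female Ctrl embryos, against 0.409, 0.165, 0.662 and 0.833 CPM in male Ctrl embryos. The male values rest on 4 to 22 counts per library, and the log2 difference was 2.56 (SE 0.61, adjusted p = 0.00438). Ccdc36, which encodes the axis-bound IHO1, had 13.6, 17.98 and 8.27 CPM in female Ctrl embryos, against 6.28, 5.32, 5.69 and 6.32 CPM in male Ctrl embryos. Ccdc36 values did not overlap and differed by 1.17 on the log2 scale (SE 0.26, adjusted p = 0.00329). Mei4, a partner of REC114, had 34.8, 37.9 and 32.8 CPM in female Ctrl embryos, against 23.0, 23.8, 29.6 and 21.3 CPM in male Ctrl embryos. The lowest female lay above the highest male, with a log2 difference of 0.52 (SE 0.13, adjusted p = 0.00664). Rec114, the conserved core of that complex, had 24.5, 24.7 and 28.6 CPM in female Ctrl embryos, against 15.2, 21.7, 16.8 and 20.0 CPM in male Ctrl embryos. Its log2 difference was 0.50 (SE 0.14, adjusted p = 0.0136), and without female Ctrl 3 its adjusted p was 0.0568. Exons of Rec114 overlap those of Nptn on the opposite strand, and since the library kit does not mark strand, reads of the pair cannot be told apart.

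Both HORMA-domain genes were higher in female Ctrl cells, and their remover was lower. Hormad1 had 244, 286 and 257 CPM in female Ctrl embryos, against 119, 147, 147 and 187 CPM in male Ctrl embryos. That was the smallest adjusted p among the members in this comparison, at 0.000510, with a log2 difference of 0.81 (SE 0.14). Hormad2, which marks the same unpaired axes, had 48.6, 58.1 and 42.9 CPM in female Ctrl embryos, against 41.6, 19.3, 28.5 and 37.7 CPM in male Ctrl embryos. The groups were separated by 42.9 and 41.6 CPM, and the log2 difference was 0.65 (SE 0.24, adjusted p = 0.0447). The call ended when genes with low counts were kept in the test (adjusted p = 0.0906). It also ended when only the 2 groups compared entered the fit (adjusted p = 0.0560). Without female Ctrl 1 or 2 or male Ctrl 2 or 3 it ended as well (adjusted p between 0.0762 and 0.173). Trip13 had 133, 132 and 144 CPM in female Ctrl embryos, against 169.8, 191, 187 and 165 CPM in male Ctrl embryos. Every female was below every male, and the log2 difference was -0.39 (SE 0.09, adjusted p = 0.00379).

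Prdm9, the gene that places hotspots, was also higher in female Ctrl cells. It had 6.79, 11.5 and 6.21 CPM in female Ctrl embryos, against 3.80, 2.19, 2.98 and 3.82 CPM in male Ctrl embryos. The groups did not overlap, and the log2 difference was 1.35 (SE 0.36, adjusted p = 0.00949). Without female Ctrl 2 the adjusted p was 0.0654.

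**Figure D2:**
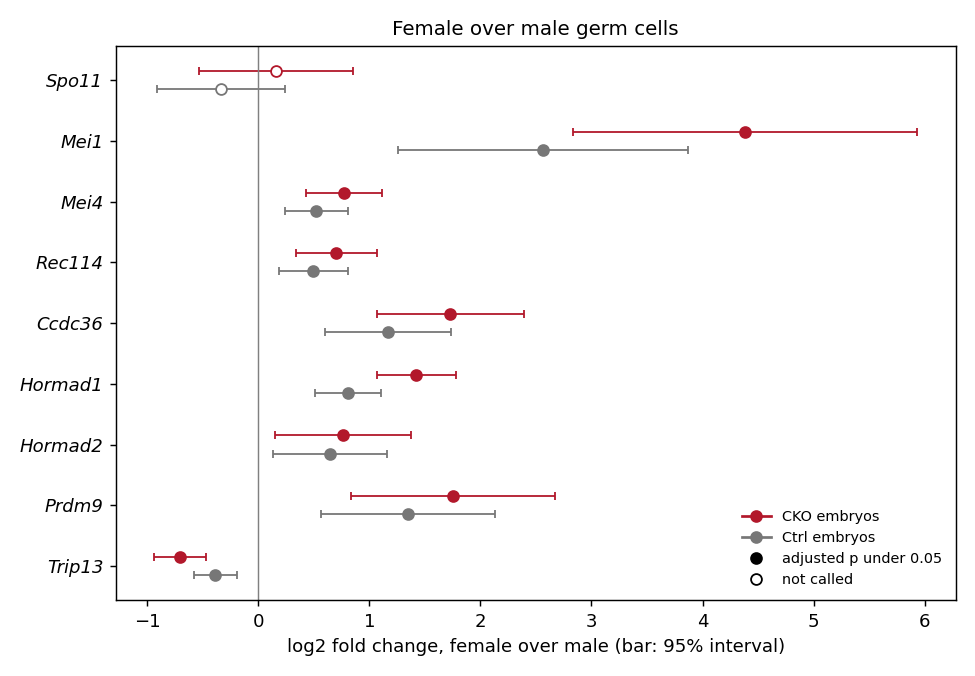
Log2 difference of females minus males for each member (points, edgeR estimates; bars, 95% confidence intervals), in CKO and in Ctrl embryos. Mei1 was highest, at 4.38 in CKO and 2.56 in Ctrl, and Trip13 was below 0 in both, at -0.70 and -0.39.

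The same comparison within CKO embryos used none of the Ctrl libraries in its group means. It called 7 members higher in females, 1 lower and 1 not called, where 38.4% of all tested genes were called, 19.4% higher and 19% lower. The groups did not overlap for the 7 higher members and for Trip13, a separation seen in 33.4% of all tested genes for higher and 30.8% for lower values. With library size as the only scaling, the all-gene calls were 4336 higher and 2212 lower, against 3239 and 3172, and no member reversed. Mei1 had 21.05 and 4.96 CPM in female CKO embryos, against 0.203, 0.936 and 0.722 CPM in male CKO embryos, a log2 difference of 4.38 (SE 0.72, adjusted p = 0.000427). Both females were above every male, but they differed between themselves by 4.24-fold, and the log2 difference was 2.99 without female CKO 1. Hormad1 had 370.1 and 299 CPM in female CKO embryos, against 109, 124 and 141 CPM in male CKO embryos, and its log2 difference of 1.42 (SE 0.17) had an adjusted p of 3.76e-05. Ccdc36 had 38.2 and 18.8 CPM in female CKO embryos, against 8.12, 9.57 and 8.08 CPM in male CKO embryos, a log2 difference of 1.73 (SE 0.31, adjusted p = 0.000750) that was 1.13 without female CKO 1. For both genes the females were above all males.

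Mei4 had 47.2 and 50.8 CPM in female CKO embryos, against 24.8, 30.9 and 30.5 CPM in male CKO embryos (log2 difference 0.77, SE 0.16, adjusted p = 0.00182). Rec114 had 32.5 and 27.5 CPM in female CKO embryos, against 17.8, 17.9 and 19.7 CPM in male CKO embryos (log2 difference 0.70, SE 0.17, adjusted p = 0.00544). Neither gene's groups overlapped. Prdm9 had 25.6 and 7.46 CPM in female CKO embryos, against 4.57, 5.27 and 4.89 CPM in male CKO embryos, and Hormad2 had 66.9 and 38.8 CPM in female CKO embryos, against 27.4, 30.4 and 35.5 CPM in male CKO embryos. Their log2 differences were 1.75 (SE 0.42, adjusted p = 0.00557) for Prdm9 and 0.76 (SE 0.28, adjusted p = 0.0472) for Hormad2. The call of Hormad2 ended with replicate number added to the fit (adjusted p = 0.0784) and when genes with low counts were kept (adjusted p = 0.101). Without female CKO 1 the calls ended for Prdm9 (log2 difference 0.60, adjusted p = 0.304), Hormad2 (0.32, adjusted p = 0.518) and Rec114 (0.57, adjusted p = 0.0705), and that of Hormad2 also without male CKO 1 (adjusted p = 0.120) or male CKO 2 (adjusted p = 0.107). Trip13 had 118 CPM in both female CKO embryos, against 172, 208 and 196 CPM in male CKO embryos, a log2 difference of -0.70 (SE 0.11, adjusted p = 0.000257). Spo11 had 19.4 and 13.3 CPM in female CKO embryos, against 15.1, 10.5 and 18.3 CPM in male CKO embryos, and those groups overlapped (log2 difference 0.16, SE 0.32, adjusted p = 0.723).

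The question of the knockout in females is whether loss of EZH2 changes these genes in cells at the start of meiosis. Of the 9 members, 1 was called higher and none lower by edgeR in female CKO cells, where 3.01% of all tested genes were called higher, 4.16% lower and 7.17% in either direction. At an unadjusted p under 0.05 there were 4 members of 9, where 23.3% of all tested genes were. With library size as the only scaling the all-gene calls were 652 higher and 357 lower, against 503 and 695, and the median of all genes moved by 0.11 on the log2 scale. The median log2 change over the 9 members was 0.35, and over all tested genes it was -0.0036. These changes share the female Ctrl libraries with the sex comparison above.

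The member called was Ccdc36. It averaged 28.5 ± 13.7 CPM in female CKO embryos (SD, n = 2) and 13.3 ± 4.86 CPM in female Ctrl embryos (SD, n = 3). Both CKO embryos, at 38.2 and 18.8 CPM, were above the highest Ctrl embryo, at 17.98 CPM, which the lower of them exceeded by little. The log2 change was 1.10 (SE 0.31, adjusted p = 0.0458). Without female CKO 1 it was 0.51 (adjusted p = 0.483), and the call also ended without female Ctrl 1 (adjusted p = 0.101), without female Ctrl 3 (adjusted p = 0.130) and when only the female libraries entered the fit (1.12, adjusted p = 0.0813).

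Other members had larger or steadier differences that were not called. Mei1 averaged 13.0 ± 11.4 CPM in female CKO embryos and 3.09 ± 1.46 CPM in female Ctrl embryos, and its log2 change was 2.07 (SE 0.65, adjusted p = 0.0716). It was 0.69 without female CKO 1, and DESeq2 and limma-voom with quality weights called it (adjusted p = 0.0230 and 0.0372). Mei4 averaged 49.0 ± 2.55 CPM in female CKO embryos and 35.2 ± 2.59 CPM in female Ctrl embryos, with no overlap (log2 change 0.48, SE 0.16, adjusted p = 0.0816). Its call depended on the settings, since DESeq2 called it (adjusted p = 0.0283), as did the edgeR test when only the female libraries entered (adjusted p = 0.0462), where Mei4 was the 1 member called and Ccdc36 was not. Hormad1 averaged 335 ± 50.3 CPM in female CKO embryos and 262 ± 21.6 CPM in female Ctrl embryos (log2 change 0.35, SE 0.17, adjusted p = 0.225).

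Prdm9 averaged 16.6 ± 12.9 CPM in female CKO embryos and 8.18 ± 2.93 CPM in female Ctrl embryos. Its log2 change of 1.02 (SE 0.42, adjusted p = 0.164) was -0.13 without female CKO 1 and 1.66 without female CKO 2 (adjusted p = 0.0413). The other members were Rec114 with a log2 change of 0.21 (SE 0.17), Hormad2 with 0.08 (SE 0.29), Trip13 with -0.21 (SE 0.11) and Spo11 with -0.40 (SE 0.32), with adjusted p between 0.252 and 0.895. CKO and Ctrl females did not overlap for Mei1, Mei4, Ccdc36 and Hormad1, which were higher, where 22.2% of all tested genes were so separated, and for Trip13, which was lower, where 22.3% were.

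**Figure D3:**
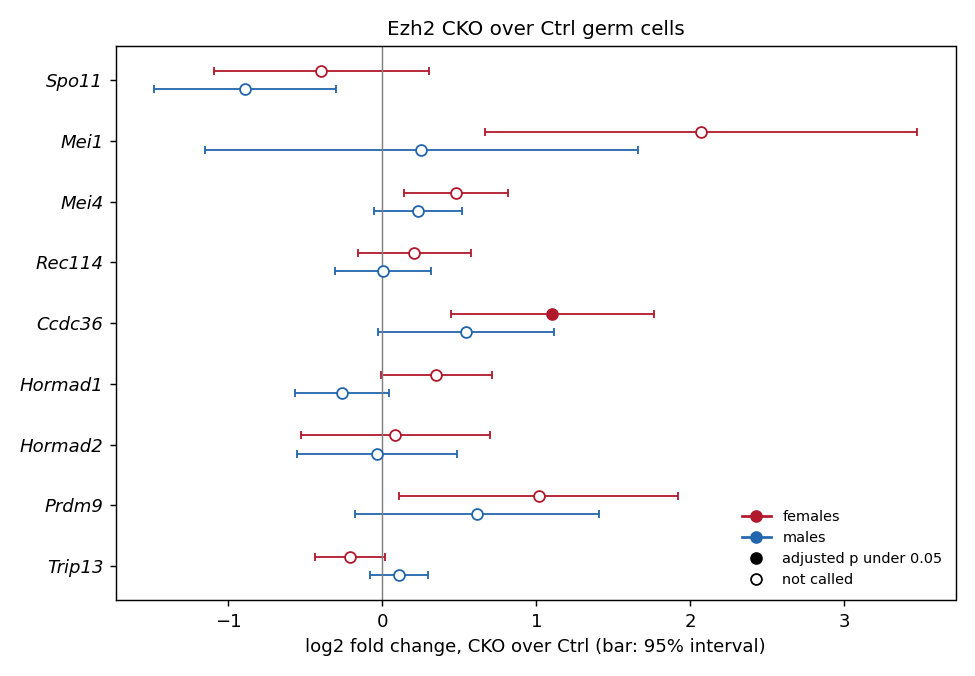
Log2 change of CKO minus Ctrl for each member (points, edgeR estimates, filled where the adjusted p is under 0.05; bars, 95% confidence intervals), in females and in males. The interval of Mei1 in females is wide around 2.07, and Spo11 in males stands at -0.89.

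The female CKO embryos differed from each other in several members. CKO 1 exceeded CKO 2 by 4.24-fold for Mei1, 3.44-fold for Prdm9, 2.03-fold for Ccdc36 and 1.72-fold for Hormad2. For Spo11 the ratio was 1.46, for Hormad1 1.24 and for Rec114 1.18, while Trip13 (0.998) and Mei4 (0.929) were not higher in CKO 1. A ratio of at least 1.5 occurred in 4 of the 9 members and in 7.81% of the 13029 genes with a mean of at least 1 CPM over all 12 libraries. CKO 1 was the higher embryo for 7 of 9 members and for 51.1% of those genes. Among other meiotic genes, Stra8 had 579.7 and 300.01 CPM in CKO 1 and CKO 2, and Sycp3 had 216 and 102 CPM. Other meiotic genes differed less between these 2 embryos. The lower and higher embryo had 51.2 and 53.2 CPM for Zglp1, 160 and 185 CPM for Rec8 and 33.1 and 34.7 CPM for Mnd1. These genes were chosen after their values were seen. Summed red blood cell markers were 16.4 CPM in CKO 1 and 1.14 CPM in CKO 2, against 0.0921 to 2.06 CPM in female Ctrl embryos, over 8 markers. Summed endothelial markers, nearly all Pecam1, were 136 to 164 CPM in female CKO embryos, against 241 to 303 CPM in female Ctrl embryos, while the other 5 of these 6 markers had higher means in female CKO embryos, among them Tek (4.001 CPM, against 2.87 CPM in female Ctrl embryos), Flt1 (1.79, against 0.567 CPM) and Cdh5 (0.494, against 0.0835 CPM). The sum of 7 steroidogenic and interstitial markers, 2 of them at 0 in female CKO embryos, was 4.65 to 8.52 CPM in female CKO embryos, against 3.00 to 3.69 CPM in female Ctrl embryos, with no overlap. The part of these markers in the members' values was not tested.

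**Figure D4:**
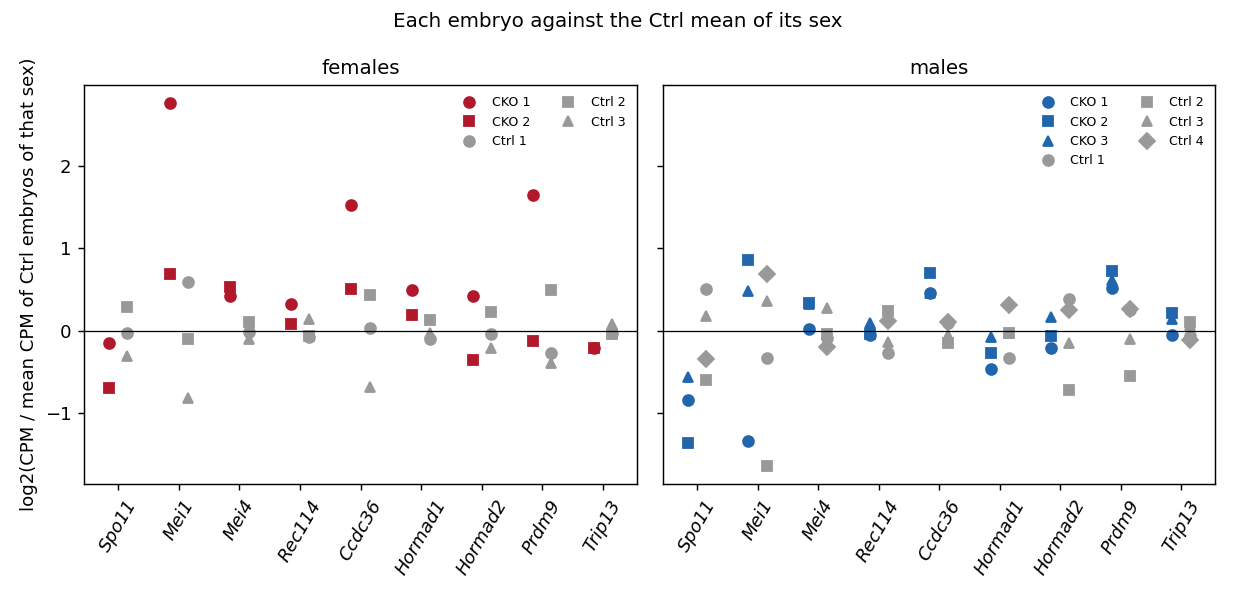
Log2 ratio of each embryo's CPM to the mean CPM of the Ctrl embryos of its sex, for the 9 members, with females in the left panel and males in the right; marker shapes are embryos, and CKO is left of Ctrl. In females, Mei1, Ccdc36 and Prdm9 of CKO 1 lie apart from CKO 2, by 4.24-fold, 2.03-fold and 3.44-fold.

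In males, where these germ cells do not enter meiosis before birth, none of the 9 members was called in CKO cells by edgeR, and 1.7% of all tested genes were called, 1.2% higher. Spo11 was the 1 member of 9 at an unadjusted p under 0.05, where 16.7% of all tested genes were. It averaged 14.6 ± 3.93 CPM in male CKO embryos (SD, n = 3) and 27.2 ± 9.39 CPM in male Ctrl embryos (SD, n = 4). Only the highest CKO embryo, at 18.3 CPM, lay above the lowest Ctrl embryo, at 17.9 CPM. The log2 change was -0.89 (SE 0.27, adjusted p = 0.115). DESeq2 called it lower (-0.88, adjusted p = 0.0303), as did limma-voom with quality weights (-1.03, adjusted p = 0.0235) and edgeR without male Ctrl 2 (-1.05, adjusted p = 0.0427).

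Ccdc36 and Prdm9 were the members whose male CKO embryos all lay above the male Ctrl embryos, a separation seen in 8.01% of all tested genes; no member was separated the other way, as 6.97% of genes were. Ccdc36 averaged 8.59 ± 0.848 CPM in male CKO embryos and 5.90 ± 0.482 CPM in male Ctrl embryos (log2 change 0.54, SE 0.27, adjusted p = 0.3305). Prdm9 averaged 4.91 ± 0.352 CPM in male CKO embryos and 3.20 ± 0.779 CPM in male Ctrl embryos (log2 change 0.62, SE 0.37, adjusted p = 0.432). Neither passed the test. Mei1 remained low in male CKO embryos, at 0.621 ± 0.377 CPM, against 0.517 ± 0.292 CPM in male Ctrl embryos (log2 change 0.25, SE 0.65). Hormad1 averaged 125 ± 16.4 CPM in male CKO embryos and 149.8 ± 27.8 CPM in male Ctrl embryos (log2 change -0.26, SE 0.14, adjusted p = 0.377). Mei4, Rec114, Hormad2 and Trip13 had log2 changes of 0.23 (SE 0.13), 0.00 (SE 0.14), -0.03 (SE 0.24) and 0.11 (SE 0.09).

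Whether the CKO effect itself differed between the sexes was tested directly, as the female change minus the male change. No member was called by edgeR, DESeq2 or limma-voom, and no gene of the 16708 was called by edgeR (0%), although 1401 genes (8.39%) had an unadjusted p under 0.05; DESeq2 called 61 genes and limma-voom 0. Among the members, Hormad1 (0.61 on the log2 scale, SE 0.22) and Trip13 (-0.32, SE 0.14) had unadjusted p of 0.0145 and 0.0377, with adjusted p of 0.511 and 0.579. For Mei1 the difference was 1.82 (SE 0.93, adjusted p = 0.618). The call of Ccdc36 in females therefore does not show that its response differed from that in males.

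The wider pathway was read through 6 lists of genes with known roles in fetal meiosis. Of all tested genes, 3.01% were called higher and 4.16% lower in female CKO cells. There, 2 of 8 tested axis and cohesin genes were higher and none lower. They were Sycp2 and Sycp3, which encode the core of the lateral axis to which HORMAD proteins bind. Sycp2 had 69.0 and 46.1 CPM in female CKO embryos, against 16.7, 22.9 and 18.3 CPM in female Ctrl embryos (log2 change 1.58, SE 0.34, adjusted p = 0.0182). Sycp3 had 216 and 102 CPM in female CKO embryos, against 70.1, 87.0 and 65.5 CPM in female Ctrl embryos (log2 change 1.10, SE 0.24, adjusted p = 0.0185). None of 6 central element genes, 9 meiotic entry genes or 13 strand exchange genes was called in female CKO cells by edgeR, and 3, 2 and 4 of them had an unadjusted p under 0.05, as 23.3% of all tested genes did. DESeq2 called 2, 0 and 0 of these, and limma-voom 2, 1 and 2, all higher. Of 7 break partners outside the members, 1 was lower, Ewsr1 (log2 change -0.49, SE 0.12, adjusted p = 0.0263), which encodes an RNA-binding protein reported to interact with PRDM9. Gm960, the partner of Spo11, was not called (log2 change 0.79, adjusted p = 0.213). Of 18 genes of HORMAD-dependent surveillance, 1 was higher and 3 were lower. Trp63, whose p63 protein guards oocytes with broken DNA, had 2.37 and 3.25 CPM in female CKO embryos, against 0.338, 0.438 and 0.480 CPM in female Ctrl embryos (log2 change 2.74, SE 0.39, adjusted p = 0.00342). Male embryos had Trp63 at a similar level to female CKO embryos, with means of 2.79 CPM in Ctrl and 3.39 CPM in CKO. Topbp1 (-0.59), H2afx (-0.65) and Brca1 (-0.70), which act in signalling from breaks and unpaired axes, were lower (adjusted p between 0.0169 and 0.0344). With library size as the only scaling, the calls ended for Ewsr1 (adjusted p = 0.0591), H2afx (0.0519) and Brca1 (0.0616). The calls of Sycp2, Sycp3, Ewsr1 and Brca1 ended without female Ctrl 1 or female Ctrl 3 (adjusted p between 0.0551 and 0.0970). Without female Ctrl 2, those of Ewsr1 (0.0568) and H2afx (0.0699) ended. Trp63 stayed called whichever single embryo was left out, whereas the other 6 genes called in these lists lost their call without female CKO 1, among them Sycp2 (log2 change 1.26, adjusted p = 0.142), Sycp3 (0.46, adjusted p = 0.266) and H2afx (-0.48, adjusted p = 0.197).

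In male CKO cells no gene of the 6 lists was called by edgeR, and between 2 and 5 genes of each had an unadjusted p under 0.05, as 16.7% of all tested genes did. DESeq2 called Stra8 higher and Mdc1 and H2afx lower there, and limma-voom called Mdc1, H2afx and Brca2 lower; Mdc1 and Brca2 are named after their values were seen. Between the sexes in Ctrl embryos, 20.1% of all tested genes were called higher in females and 19.4% lower. The counts higher and lower were 8 and 0 of 9 meiotic entry genes and 5 and 0 of 8 axis and cohesin genes. They were 5 and 0 of 6 central element genes and 6 and 1 of 13 strand exchange genes. For break partners they were 2 and 1 of 7, and for surveillance genes 2 and 2 of 18. Genes lower in females included Trp63 (log2 difference -2.73, SE 0.36, adjusted p = 6.32e-05), Rad9a (-1.11, SE 0.21, adjusted p = 0.000886) and Cxxc1 (-0.66, SE 0.10, adjusted p = 0.000146). Stra8, which starts the meiotic program, had 296, 276 and 212 CPM in female Ctrl embryos, against 1.81, 1.07, 2.22 and 3.56 CPM in male Ctrl embryos (log2 difference 6.91, SE 0.39, adjusted p = 2.01e-07). Rec8, the meiotic cohesin, differed by 3.89 (SE 0.43, adjusted p = 3.24e-05) and Dmc1, the meiotic recombinase that acts on the broken ends, by 1.64 (SE 0.21, adjusted p = 5.71e-05). Rad21l, another meiotic cohesin, had 0.399, 0.688 and 0 CPM in female Ctrl embryos and was at 0 in all 4 male Ctrl libraries. Its female mean of 0.362 CPM was 13.9 times the level that 3 counts over the male group would give. The call of Rad21l (adjusted p = 0.0215) ended when genes with low counts were kept in the test (adjusted p = 0.107). It also ended with replicate number added to the fit (0.0708), in limma-voom (0.107) and without female Ctrl 2 (0.0752), whereas DESeq2 called it. Sex differences of the members, between 0.50 and 2.56 on the log2 scale for those higher in Ctrl females, were below that of Stra8 in each case.

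The genes whose levels over the 12 libraries lay nearest those of the 3 members with the highest mean CPM were found by the root mean square distance of log2 levels, after each gene's own mean was removed. Nearest to Hormad1 were Sp3os (distance 0.146), Blvra (0.152) and Synj2bp (0.159), where the median over all genes was 0.649. Nearest to Hormad2 were Dcaf6 (0.159), Spop (0.173) and Pdcd4 (0.175), with a median of 0.572, and nearest to Trip13 were Eif5a (0.0594), Dnttip2 (0.0695) and Tyw5 (0.0710), with a median of 0.437. Among the members themselves, Ccdc36 and Prdm9 were the closest pair (0.235), followed by Mei4 and Rec114 (0.247), and Mei1 and Trip13 were the farthest apart (1.66).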

How the data were processed

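The authors deposited 1 table of raw counts per gene and library, with no normalisation. Per the labels' protocols, 1 ng of total RNA was amplified with SMART-seq V4 and sequenced from NEBNext Ultra II libraries, which mark no strand. Per the submitters' processing notes, CASAVA 1.8.4, Trimmomatic 0.33, TopHat2 2.0.11 and featureCounts were used with mm9 and NCBIM37. Gene names and exon lengths were taken from a GRCm38 annotation, another build than that of the counts, and 32919 of 37991 identifiers matched.

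edgeR 4.0.16 (R 4.3.3) was run on the counts as deposited: filterByExpr (minimum count 10, total 15), TMM scaling, a robust quasi-likelihood fit of 4 group means over 12 libraries (8 residual degrees of freedom) and 5 contrasts. All 9 matched members passed the filter. A gene was called at a Benjamini-Hochberg adjusted p under 0.05 over 16708 genes. SE is the log2 change divided by the square root of F. CPM uses TMM-scaled library sizes, and TMM factors were 0.926 to 1.11. With 1 CPM at 24.2 to 34.2 counts, Mei1 in males is the least precise member. The embryos were sorted separately, so p-values measure the spread between embryos, taken over the 4 groups together and not within each group. For Ccdc36 the highest embryo was 2.03 times the lowest in female CKO and 2.17 times in female Ctrl. In males the ratio was 1.18 in CKO and 1.19 in Ctrl. Replicate counts differed beyond sampling noise, with chi-square values between 17.5 and 69.8 per gene. Alternatives were limma 3.58.1 (voom), DESeq2 1.42.0, other scalings and filters, a replicate block and leaving out each library. For female CKO cells the called pathway genes named were the up to 4 of each list with the smallest adjusted p. Between the sexes only some of the genes under that rule are named, and Gm960 was named without a call. The members and lists were chosen with earlier results of these data known.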

Additional observations from a re-analysis of the deposited data

Results flagged for a closer look

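Dixon's test for a single distant sample, which chance meets in about 1 in 20 groups, was possible in the 4 male Ctrl embryos, and no member had a distant embryo there. For 3 marker sums an embryo stood apart. The gap of the most distant embryo was 0.830 of the group's range for summed germ cell markers, 0.892 for summed Sertoli cell markers and 0.915 for summed steroidogenic and interstitial markers; the critical value for groups of 4 lies below all of them. The distant embryo was male Ctrl 1 for the Sertoli sum, at 51.2 CPM, and for the steroidogenic and interstitial sum, at 8.70 CPM. Spo11 and Hormad2 were also highest in male Ctrl 1 among the male Ctrl embryos, at 38.6 and 41.6 CPM, and without that embryo the male log2 change of Spo11 was -0.67 (edgeR adjusted p = 0.199), against -0.89 with it. The part of these markers in the members' values was not tested.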

How the results depend on the processing

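Of 675 member fold changes under the alternatives, 623 kept their direction and their side of the threshold, 20 lost the call, 10 gained it and 22 reversed, all among changes that were not called. The members called in female CKO cells, 1 as reported, numbered 2 with library size only, with the filter of 5 CPM and in limma-voom, 3 in DESeq2, 0 with the replicate block, 1 (Mei4 in place of Ccdc36) with only the groups compared, and 0 to 2 when single embryos were left out. In male CKO cells the count, 0 as reported, was 1 in limma-voom and in DESeq2 and 0 to 1 over the embryos left out. Between the sexes it was 5 to 8 in CKO embryos and 6 to 8 in Ctrl embryos, against 8. The replicate numbers used were those of the sample titles, and the deposited column names number some female embryos otherwise. Embryos of the same title number had correlations of deviations between -0.116 and 0.168. With so few embryos per group this cannot exclude pairing, and the labels give no shared litter. With the replicate block the adjusted p of Ccdc36 in females was 0.0946. The block also reversed Hormad2 in males (0.11) and in the difference of effects (-0.090), and limma-voom reversed Hormad2 in females (-0.029), in males (0.039) and in the difference (-0.068), and Prdm9 in the difference (-0.033). Over the embryos left out, log2 changes ran in females between -0.36 and 0.43 for Hormad2 and between -0.13 and 1.66 for Prdm9. In males they ran between -0.21 and 0.13 for Hormad2, -0.17 and 0.68 for Mei1, and -0.076 and 0.092 for Rec114. For the difference of effects they ran between -0.32 and 0.0099 for Ezh2, -0.034 and 0.99 for Ccdc36, -0.33 and 0.46 for Hormad2, and -0.75 and 1.04 for Prdm9, and for Spo11 between CKO females and males they ran between -0.14 and 0.41. All-gene calls were 1198 in females (2068 in limma-voom, 1989 in DESeq2, 317 to 691 over the embryos left out), 284 in males (63 with only the groups compared, 105 with the block, 1122 in limma-voom, 990 in DESeq2, 36 to 502), 0 for the difference of effects (2 without the low-count filter, 61 in DESeq2, 0 to 3) and 6411 between the sexes in CKO embryos (4063 to 5602). The causes were not tested. With 1 female CKO embryo left in a fit, that embryo is assumed to vary like the other groups. Depth limits Mei1 in males, and 2 female CKO embryos limit every female CKO value.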
